A study of Rattus norvegicus with 11 samples.

Results

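The genes described here make, load, clear and break down gamma-aminobutyric acid (GABA), the main inhibitory transmitter of the brain, or receive and anchor its signal at the membrane. They are Gad1, Gad2, Abat, Aldh5a1, Slc32a1, Slc6a11, Slc6a13, Gabbr1 and Gphn. Every probe set whose single platform gene symbol was one of these 9 genes was taken, which gave 15 of the 15923 probe sets on the array, with at least 1 for each gene. The array named 10412 genes in this way. Total RNA of rat hippocampus had been hybridised to 11 arrays. The control diet had 6 arrays and the ketogenic diet, which supplies mostly fat and little carbohydrate, had 5. The labels describe that diet as one that prevents epileptic seizures, and they name no genotype or treatment other than diet. No source used here gives the strain, the age, the time on the diet or what either diet held. The labels do not tie arrays to single rats. The p-values therefore measure only how these samples vary, which may be technical in part.

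GABA is formed from glutamate by glutamate decarboxylase, which exists in brain as the products of Gad1 and Gad2. The vesicular transporter encoded by Slc32a1 packs it into synaptic vesicles of inhibitory neurons. After release it acts on GABA-A receptors, which are chloride channels, and on GABA-B receptors, which couple to G proteins and are obligate pairs of the Gabbr1 and Gabbr2 products. Transporters in the plasma membrane take it up again, and Abat and Aldh5a1 convert it in sequence to succinate, a citrate cycle intermediate, by a route called the GABA shunt. In hippocampus the decarboxylases and the vesicular transporter mark interneurons, which are scattered among the excitatory pyramidal and granule cells. A bulk measurement cannot tell fewer cells of a type from less RNA per cell.

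Values are log2 probe set signals after quantile normalization between arrays, and a difference is the ketogenic minus the control mean on that scale. Probe sets hybridise with their own efficiency, so levels of different probe sets are not compared. A probe set is described as called where its adjusted p from limma was under 0.05, adjusted by Benjamini-Hochberg across the 11899 probe sets tested. Those with a mean below 5.16 were not tested. By this rule 13 of the 15 probe sets were tested and 2 were not, the only one of Slc6a13 and 1 of the 5 of Gabbr1.

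Median deposited signals were 89.2 to 94.2 on control and 79.9 to 87.9 on ketogenic arrays. RNA integrity was read from the Gapdh control probe sets, as the log2 ratio of the 3 prime to the 5 prime one, which rises as RNA degrades. It was -0.088 to 0.11 on control and 0.16 to 0.38 on ketogenic arrays (difference 0.22, exact two-sided permutation test, p = 0.00216, the smallest that 6 against 5 arrays allow, adjusted p = 0.00433 over 2 measures). For actin it was 0.47 to 0.79 and 0.69 to 1.01 (difference 0.19, exact p = 0.0303, adjusted p = 0.0303). The actin difference lost its p under 0.05 in 5 of the 11 cases with 1 array left out, at an exact p of 0.0556 without control replicate 2, 3 or 6 and 0.0571 without ketogenic replicate 2 or 5. These ratios were taken after quantile normalization. On the values as deposited the Gapdh difference was 0.20 (exact permutation p = 0.00649) and the diets overlapped. The actin difference was 0.19 there (exact permutation p = 0.00216) and the diets did not overlap. Ketogenic replicate 3 stood apart from its group. It correlated on average at 0.961 with controls and at 0.952 with the other 4 of its diet, and its title carries a suffix that no other title has. Markers of hippocampal excitatory neurons were present, with Slc17a7, the vesicular glutamate transporter, at a control mean of 10.83 and Nrgn, a postsynaptic calmodulin-binding protein, at 10.60. Of the 7 tested excitatory markers 1 rose, Camk2a. Among markers of other cells, 3 of 7 tested for choroid plexus (Aqp1, Cldn2 and Folr1) and 2 of 7 for oligodendrocytes (Mag and Ugt8) were called lower. So were 2 of 6 for microglia (Aif1 and Csf1r) and 1 of 8 for vessels (Slco1a4). In these lists 0 were called higher. The microglial markers went both ways, 4 negative and 2 positive. The positive ones were C1qb at 0.31 (adjusted p = 0.0880) and C1qc at 0.33 (adjusted p = 0.0756). Of 4 tested for red cells 3 fell (Hbb, Alas2 and Slc4a1) and 1 rose (Bpgm). Beside these marker counts, 8.85% of all 8397 tested genes were called higher and 8.03% lower. Cldn2 and Alas2 had ketogenic means under the testing level and passed the filter through their control values. Neither a batch nor a scan date is labelled, and whether one goes with diet was not tested.

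Among the genes of GABA handling, 1 of 13 tested probe sets was called, a Gabbr1 probe set that was 1.29-fold lower on the ketogenic diet. Synthesis, vesicle loading, breakdown and uptake genes and gephyrin had no called probe set. The called share of 7.69% compares with 16.5% of all tested probe sets, of which 8.62% were higher and 7.86% lower on the ketogenic diet. Of all calls 52.3% were higher, or 38.3% on the values as deposited. Of the 13 differences 9 were negative and 4 positive. Their median was -0.14, against -0.0041 over all tested probe sets. At an unadjusted p under 0.05 there were 5, all negative, where 33.3% of all tested probe sets passed that mark in either direction. They were Gad1 1370760_a_at, Abat 1375321_at and Gabbr1 1369371_a_at, 1375720_at and 1388039_a_at. Probe sets of the same gene are not independent, and no share by sign is given for that mark, so no direction is read from them. Diets overlapped for every one of the 13, while 6.99% of all tested probe sets had diets that did not overlap. Without ketogenic replicate 3, 2 of the 13 were called, the same Gabbr1 probe set and 1 of Gad1.

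**Figure D1:**
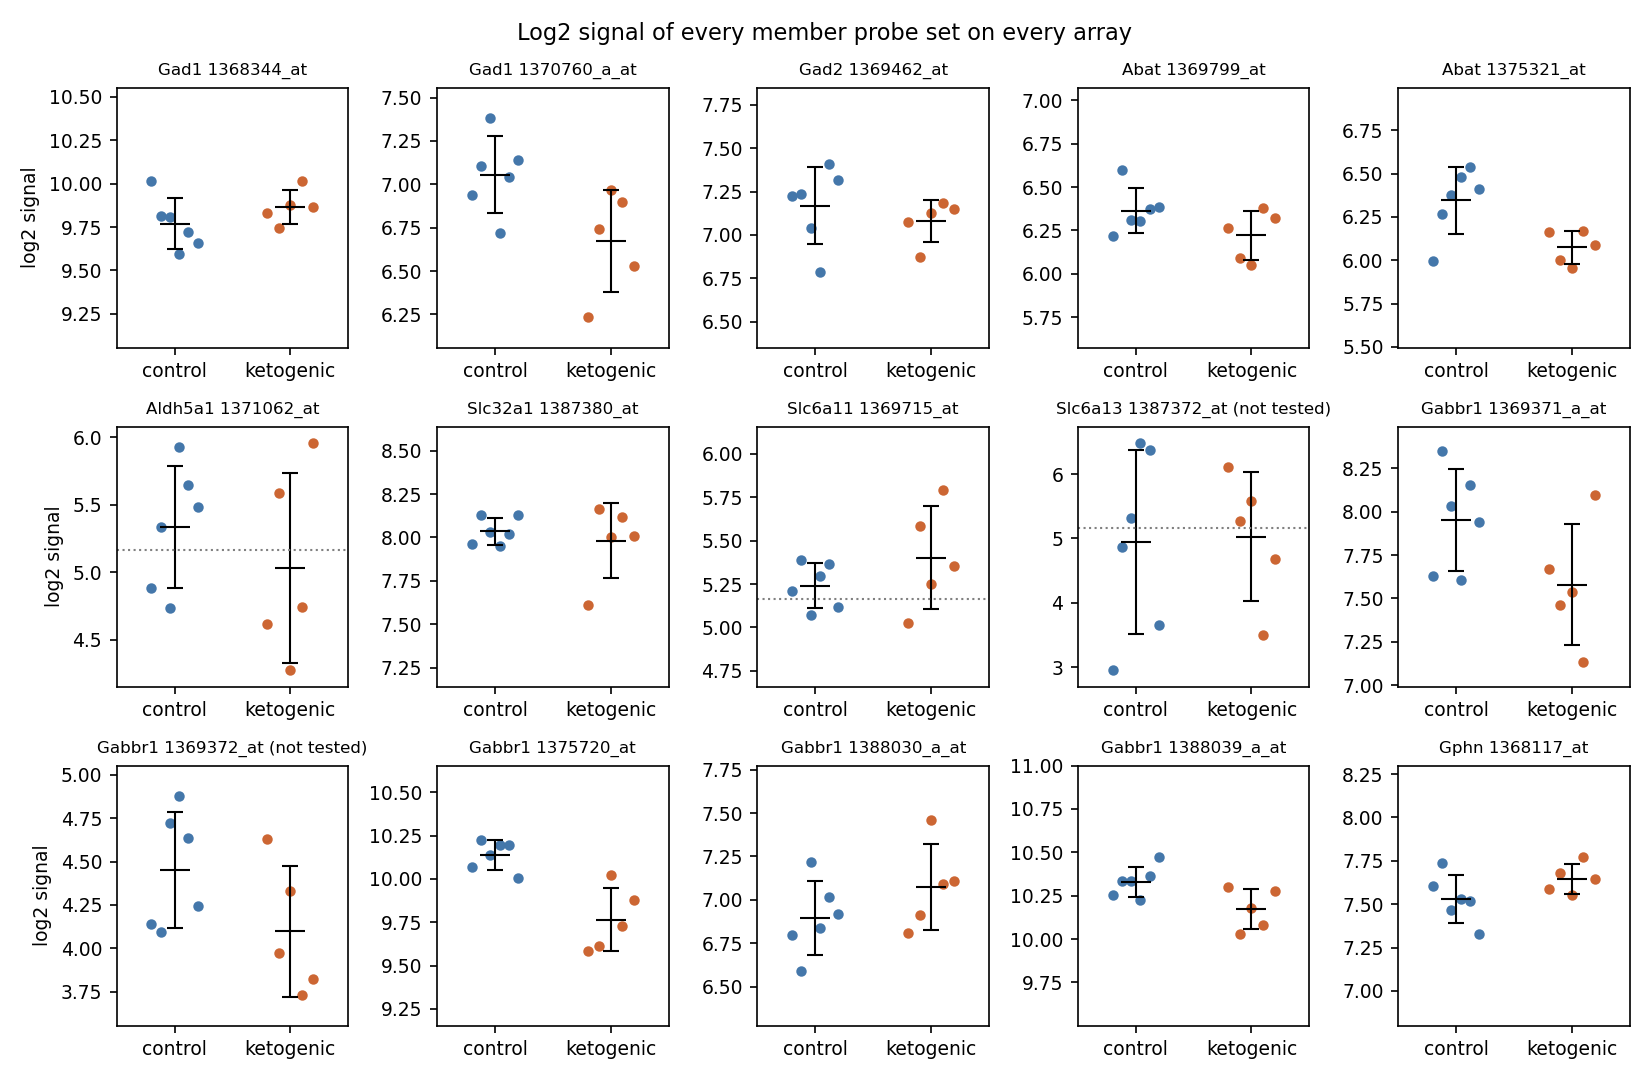
Log2 signal (y axis, own range in each panel) of each of the 15 probe sets on the 6 control (blue) and 5 ketogenic (orange) arrays, with horizontal bars for the mean and whiskers for the SD. The dotted line marks the testing level of 5.16 where it lies in the panel. For Gabbr1 1375720_at the ketogenic points lie below the control points except replicate 3, whereas Slc6a13 spreads from 2.96 to 6.48 over both diets.

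**Figure D2:**
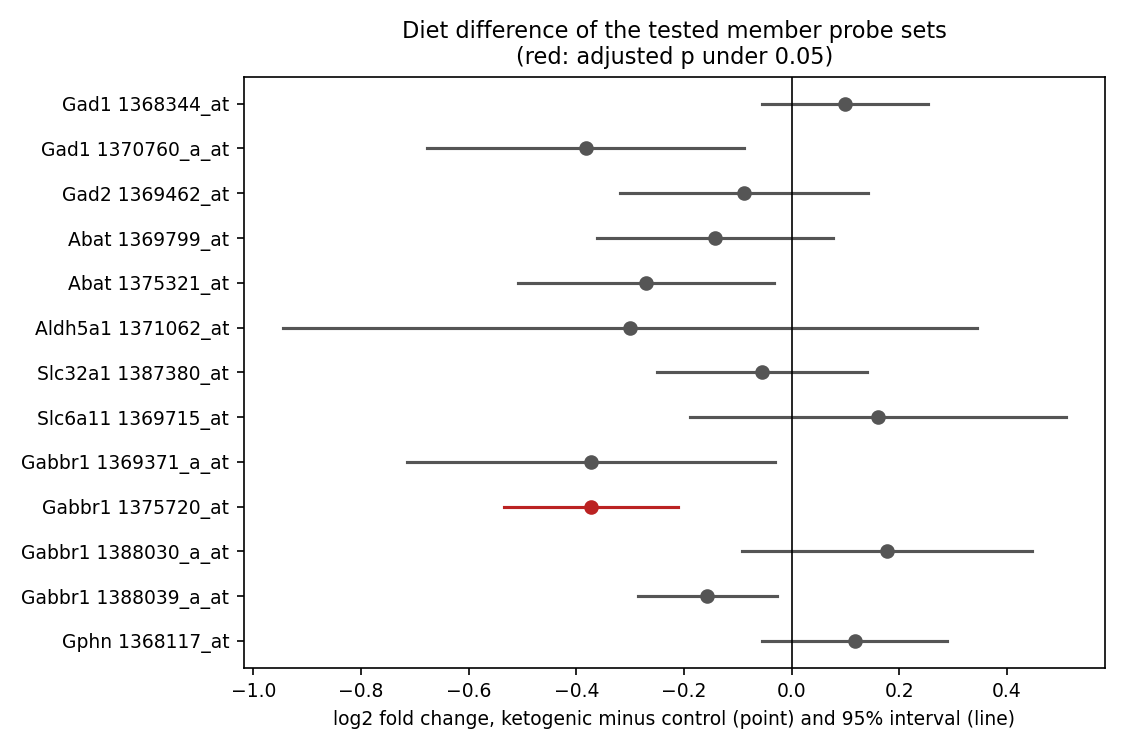
Log2 fold change (x axis, ketogenic minus control) of the 13 tested probe sets, with points for the estimate and lines for its 95% interval. The interval of Gabbr1 1375720_at, in red, runs from -0.53 to -0.21 and is the one whose adjusted p was under 0.05.

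Synthesis was read by 3 probe sets. Probe set 1368344_at of Gad1, the decarboxylase isoform that supplies most of the brain's GABA, ranged from 9.59 to 10.01 with a median of 9.77 on control arrays. Its values on ketogenic replicates 1 to 5 were 9.83, 9.74, 9.88, 10.02 and 9.87. Of the ketogenic values 4 of 5 were above the control median, and replicate 4 lay just above the highest control. The difference was 0.10 (SE 0.07, 95% interval -0.05 to 0.25, adjusted p = 0.353, limma).

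The other Gad1 probe set, 1370760_a_at, went the opposite way. Its suffix marks probes that match more than 1 transcript of the same gene. It ranged from 6.72 to 7.38 on control arrays, with a median of 7.08, and was 6.24, 6.74, 6.96, 6.90 and 6.53 on ketogenic replicates 1 to 5. All 5 ketogenic values lay under the control median and 2 of them, replicates 1 and 5, under the lowest control. The difference was -0.38 (SE 0.14, interval -0.68 to -0.09, adjusted p = 0.0706), and without ketogenic replicate 3 it was -0.46 (adjusted p = 0.0283). Without control replicate 4 it was -0.45 (adjusted p = 0.0474). With the Gapdh and actin ratios entered as covariates its sign turned, at 0.025 (adjusted p = 0.999). The scaling bears on both Gad1 probe sets. On the values as deposited 1368344_at was called higher (0.23, adjusted p = 0.0344) and 1370760_a_at lower (-0.48, adjusted p = 0.0238), and centred on the 75th percentile both were also called, at 0.27 and -0.45. Over their alternatives the adjusted p ran from 0.0224 to 0.983 for the first and from 0.0238 to 0.999 for the second.

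Gad2 encodes the isoform enriched at nerve terminals, where its activity depends on binding of the vitamin B6 cofactor. Its probe set ranged from 6.79 to 7.41 on control arrays, with a median of 7.23. On ketogenic replicates 1 to 5 it was 7.07, 6.87, 7.13, 7.18 and 7.15, all within the control range and all below its median. The difference was -0.09 (SE 0.11, interval -0.32 to 0.14, adjusted p = 0.599), and 0.10 with those covariates.

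Slc32a1, the vesicular GABA transporter, had narrow controls, from 7.95 to 8.13 with a median of 8.03. Ketogenic replicates 1 to 5 were at 7.61, 8.17, 8.0, 8.12 and 8.01. Replicate 1 lay below every control, replicate 2 just above, and the other 3 within. The difference was -0.05 (SE 0.09, interval -0.25 to 0.14, adjusted p = 0.711), and it was 0.04 without ketogenic replicate 1 and 0.11 with the covariates. The intervals of Gad2, Slc32a1 and the first Gad1 probe set lay between -0.32 and 0.25, in this setting.

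Interneuron markers, which mark the cells in which Gad1, Gad2 and Slc32a1 are read, were set beside these values. Of 17 listed, 13 were on the array and 10 were tested. By limma 0 were called, where 16.9% of all tested genes were, with 4 positive and 6 negative and a median of -0.13. Cck, the cholecystokinin gene, was at 0.0083 (adjusted p = 0.960). Npy, a peptide of several interneuron classes, was at -0.28 (adjusted p = 0.177), and Sst, the somatostatin gene, at -0.16 (adjusted p = 0.325). Pvalb, a calcium buffer of fast-spiking interneurons, is named after its value was seen, since it had the smallest adjusted p of the list (0.0543), with a difference of 0.49 (SE 0.17). The summed signal of the marker probe sets was 2937 to 3488 on control and 2951 to 3852 on ketogenic arrays. Their part in the synthesis values was not tested.

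Breakdown starts with Abat, the mitochondrial GABA transaminase, which has 2 probe sets. Probe set 1369799_at ranged from 6.22 to 6.60 on control arrays, with a median of 6.34, and was 6.27, 6.09, 6.05, 6.38 and 6.32 on ketogenic replicates 1 to 5. Replicates 2 and 3 were below all controls and the others within their range. The difference was -0.14 (SE 0.10, interval -0.36 to 0.08, adjusted p = 0.348).

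Probe set 1375321_at of Abat had the same sign. It ranged from 6.0 to 6.54 on control arrays, with a median of 6.40, and was 6.16, 6.0, 5.95, 6.17 and 6.09 on ketogenic replicates 1 to 5. Every ketogenic value was below the control median, although control replicate 1, at 6.0, lay among them. The difference was -0.27 (SE 0.11, interval -0.51 to -0.03, adjusted p = 0.106). Without that control it was -0.34 (adjusted p = 0.0404). On the values as deposited it was -0.45 (adjusted p = 0.0144), and centred on the 75th percentile -0.41 (adjusted p = 0.0200). Its adjusted p ran from 0.0144 to 0.989 over its alternatives. With both Abat probe sets averaged, the difference was -0.21 (SE 0.10, adjusted p = 0.151).

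Aldh5a1, the succinic semialdehyde dehydrogenase that completes the shunt, was measured close to the testing level. Its probe set ranged from 4.74 to 5.93 on control arrays, with a median of 5.41, and was 4.62, 5.58, 4.28, 4.74 and 5.95 on ketogenic replicates 1 to 5. Of the 11 values 5 were below 5.16, and the ketogenic values enclosed the control range. The ketogenic mean of 5.03 was under the testing level, and the probe set passed the filter through its control values (mean 5.33). The difference was -0.30 (SE 0.30, interval -0.95 to 0.34, adjusted p = 0.512). An interval this wide leaves room for a near 2-fold decrease, so the probe set does not resolve a diet difference of moderate size.

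Uptake was read by a single weak probe set for each transporter. Slc6a11 encodes an astrocytic GABA transporter. It ranged from 5.07 to 5.39 on control arrays, with a median of 5.25, and was 5.03, 5.58, 5.25, 5.79 and 5.35 on ketogenic replicates 1 to 5. Replicates 2 and 4 were above all controls and replicate 1 below them. The difference was 0.16 (SE 0.16, interval -0.19 to 0.51, adjusted p = 0.520), and -0.03 on the values as deposited. Of 12 astrocyte markers 11 were tested, of which 2 fell and 0 rose, where 8.03% of all tested genes fell. The 2 were Aqp4, a water channel (-0.33, SE 0.07, adjusted p = 0.00970), and Gfap, an intermediate filament (-0.39, SE 0.08, adjusted p = 0.0110). Their median was -0.07, and the summed signal was 15410 to 16482 on control and 13830 to 16185 on ketogenic arrays. Their part in the Slc6a11 value was not tested.

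Slc6a13 encodes a GABA transporter best known in brain from the meninges, and in the body from liver and kidney. On control replicates 1 to 6 its probe set was at 2.96, 4.87, 5.32, 6.48, 6.38 and 3.66, and on ketogenic replicates 1 to 5 at 6.12, 5.27, 5.57, 3.50 and 4.68. The control values spanned more than 3 log2 units and enclosed all ketogenic values. The means were 4.94 ± 1.42 (SD, n = 6) and 5.03 ± 1.0 (SD, n = 5). With a mean of 4.98 over all arrays it fell under the testing level and has no test. Markers of meninges and fibroblasts also varied widely, with a summed signal of 1200 to 2360 on control and 973 to 1721 on ketogenic arrays. Of the 13 listed 11 were tested, 2 fell and 0 rose, with a median of -0.42, where 8.03% of all tested genes fell. The 2 were Col1a1, a fibrillar collagen chain, at -0.65 (SE 0.13) and Slc22a8, an organic anion transporter, at -0.62 (SE 0.14). Their part in the Slc6a13 values was not tested.

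Gabbr1, the GABA-binding subunit of the GABA-B receptor, had 5 probe sets, of which 1 was called. Probe set 1375720_at ranged from 10.01 to 10.22 on control arrays, with a median of 10.17, and was 9.58, 9.61, 10.02, 9.73 and 9.88 on ketogenic replicates 1 to 5. All ketogenic arrays except replicate 3 lay below every control, and replicate 3 lay just above the lowest control. The means were 10.14 ± 0.08 (SD, n = 6) and 9.77 ± 0.18 (SD, n = 5). The difference was -0.37 (SE 0.08, interval -0.53 to -0.21, adjusted p = 0.00784), or 1.29-fold lower. Without ketogenic replicate 3 it was -0.44 (adjusted p = 0.000941). It was called in all 11 fits that left out 1 array, at -0.44 to -0.33. Under the other scalings it was smaller, at -0.25 on the values as deposited (adjusted p = 0.0289) and -0.21 centred on the 75th percentile (adjusted p = 0.0483). Its adjusted p ran from 0.000941 to 0.9995 over all its alternatives.

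That call, like nearly all others on the array, did not hold with the array measure of RNA quality in the fit. With both 3 prime to 5 prime ratios entered as covariates the difference of 1375720_at was -0.00043 (SE 0.11, interval -0.24 to 0.24, adjusted p = 0.9995). Under those covariates 6 of all 11899 tested probe sets were called, against 1961 without them, and 0 of the 13. The Gapdh ratio did not overlap between the diets after quantile normalization, so in such a fit diet and ratio are largely shared. On the values as deposited it did overlap, with a lowest ketogenic value of 0.13 and a highest control of 0.15. Within the diets, this probe set went down as the ratio went up. Ordered from the lowest to the highest Gapdh ratio, the ketogenic arrays were replicates 3, 5, 4, 2 and 1, at ratios of 0.16, 0.22, 0.24, 0.29 and 0.38. Their signals of 10.02, 9.88, 9.73, 9.61 and 9.58 fell in that order.

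The relation was computed for all 13 tested probe sets after the values had been seen, on values relative to the mean of their diet. For 1375720_at Pearson's r over 11 arrays was -0.82 (permutation within diets, p = 0.00331, adjusted p = 0.0430 over the 13 probe sets) and Spearman's rho -0.83 (permutation p = 0.00412, adjusted p = 0.0536). Without control replicate 5 and ketogenic replicate 1, the 2 arrays with the most extreme ratios, r was -0.91. Among the 6 controls alone r was -0.71 (exact permutation p = 0.0944, adjusted p = 0.929) and rho -0.90 (exact permutation p = 0.0278, not adjusted over the 13 probe sets). By size of r this probe set was number 68 of the 11899 tested. For the other 12 r lay between -0.57 and 0.13, with adjusted permutation p of 0.582 or more. Between the groups, ratio and diet cannot be told apart. Whether RNA quality has a part in the call was not tested.

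**Figure D3:**
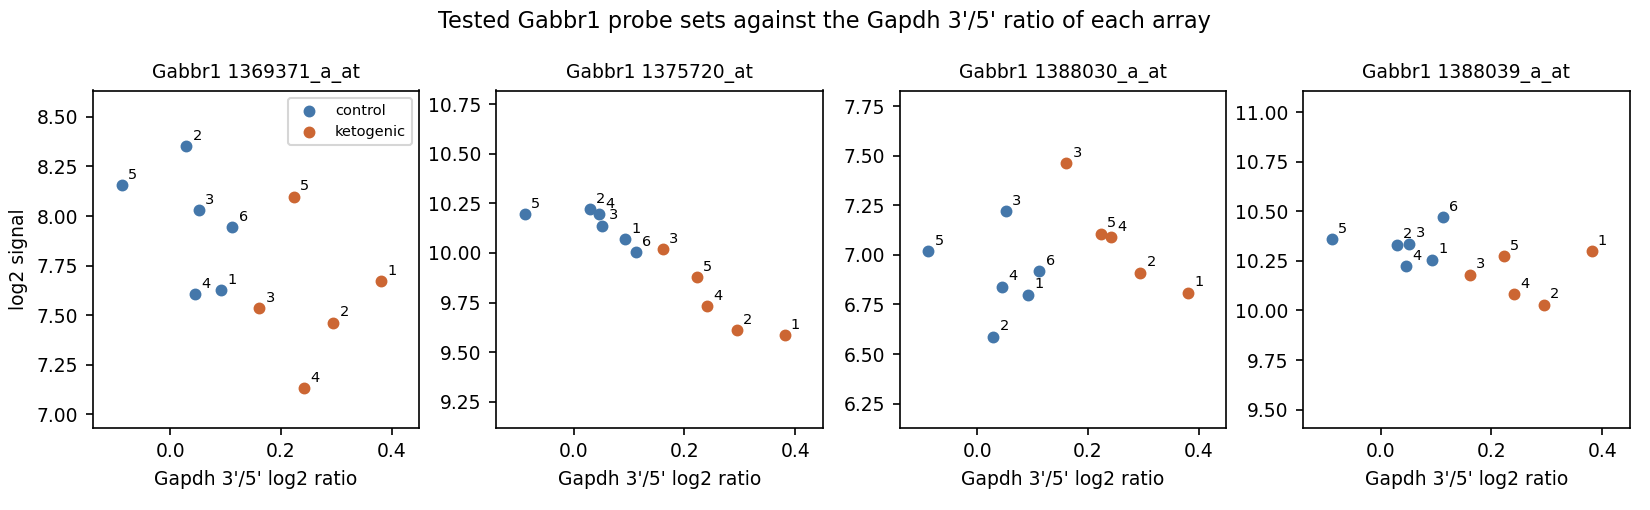
Log2 signal (y axis) of the 4 tested Gabbr1 probe sets against the log2 ratio of 3 prime to 5 prime Gapdh control probe sets (x axis) on the 6 control (blue) and 5 ketogenic (orange) arrays, with replicate numbers. For 1375720_at the signal runs from 10.22 at control replicate 2 to 9.58 at ketogenic replicate 1, the array with the highest ratio.

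The other Gabbr1 probe sets were not called. Probe set 1388039_a_at ranged from 10.22 to 10.47 on control arrays, with a median of 10.33, and was 10.30, 10.03, 10.18, 10.08 and 10.27 on ketogenic replicates 1 to 5. All 5 were below the control median and 3 below every control. The difference was -0.16 (SE 0.06, interval -0.29 to -0.03, adjusted p = 0.0866). It was -0.0048 when arrays were centred on the 75th percentile.

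Probe set 1369371_a_at had the same sign and a wider spread. It ranged from 7.60 to 8.35 on control arrays, with a median of 7.99, and was 7.67, 7.46, 7.54, 7.13 and 8.10 on ketogenic replicates 1 to 5. Replicates 2, 3 and 4 were below all controls, and replicate 5 was above the control median. The difference was -0.37 (SE 0.16, interval -0.71 to -0.03, adjusted p = 0.121), and -0.50 without ketogenic replicate 5 (adjusted p = 0.0459). Its adjusted p ran from 0.0459 to 0.989 over its alternatives.

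Probe set 1388030_a_at had a positive sign. It ranged from 6.59 to 7.22 on control arrays, with a median of 6.88, and was 6.81, 6.91, 7.46, 7.09 and 7.11 on ketogenic replicates 1 to 5. Of the 5, 4 were above the control median, and replicate 3 was above all controls. The difference was 0.18 (SE 0.13, interval -0.09 to 0.45, adjusted p = 0.341). The fifth probe set, 1369372_at, was below the testing level on all 11 arrays, at 4.09 to 4.88 on control and 3.73 to 4.63 on ketogenic arrays, and has no test. Averaged over its 4 tested probe sets, Gabbr1 had a difference of -0.18 (SE 0.08, interval -0.35 to -0.02, adjusted p = 0.118).

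Whether probe sets of a gene differed from each other in their diet difference was tested after their values had been seen, in 1 limma fit over all 1764 pairs of tested probe sets that share a gene. The log2 ratio of both probe sets on an array was compared between diets, with adjustment over all pairs. Of the 8 pairs among Gad1, Abat and Gabbr1, 1 was called, against 10.0% of all pairs, and 4 had the same sign, against 56.8% of all pairs. For Gabbr1 the log2 ratio of 1375720_at to 1388030_a_at was 2.92 to 3.64 on control and 2.56 to 2.78 on ketogenic arrays. These ranges did not overlap. It was lower by 0.55 on the log2 scale on the ketogenic diet (difference -0.55, SE 0.13, adjusted p = 0.0227), and its adjusted p was 0.0550 and 0.0582 without ketogenic replicates 2 and 4. On the values as deposited it was -0.33 (adjusted p = 0.101), and with both RNA ratios as covariates -0.56 (adjusted p = 0.769).

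For Gad1 the log2 ratio of 1368344_at to 1370760_a_at was 2.43 to 3.07 on control and 2.91 to 3.60 on ketogenic arrays. The ranges overlapped, with a difference of 0.48 (SE 0.15, interval 0.15 to 0.81, adjusted p = 0.0645). It was called on the values as deposited (0.71, adjusted p = 0.0118) and when control replicate 1 (adjusted p = 0.0436) or ketogenic replicate 3 was left out (adjusted p = 0.0305), and the covariates brought it to 0.10 (adjusted p = 0.954). The 2 Abat probe sets differed by 0.13 (SE 0.12, adjusted p = 0.506).

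Gphn encodes gephyrin, the scaffold that holds GABA-A and glycine receptors at inhibitory synapses and also takes part in making the molybdenum cofactor. Its probe set ranged from 7.33 to 7.73 on control arrays, with a median of 7.52, and was 7.59, 7.68, 7.55, 7.77 and 7.64 on ketogenic replicates 1 to 5. All 5 ketogenic values were above the control median, and replicate 4 was above all controls. The difference was 0.12 (SE 0.08, interval -0.05 to 0.29, adjusted p = 0.323).

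**Figure D4:**
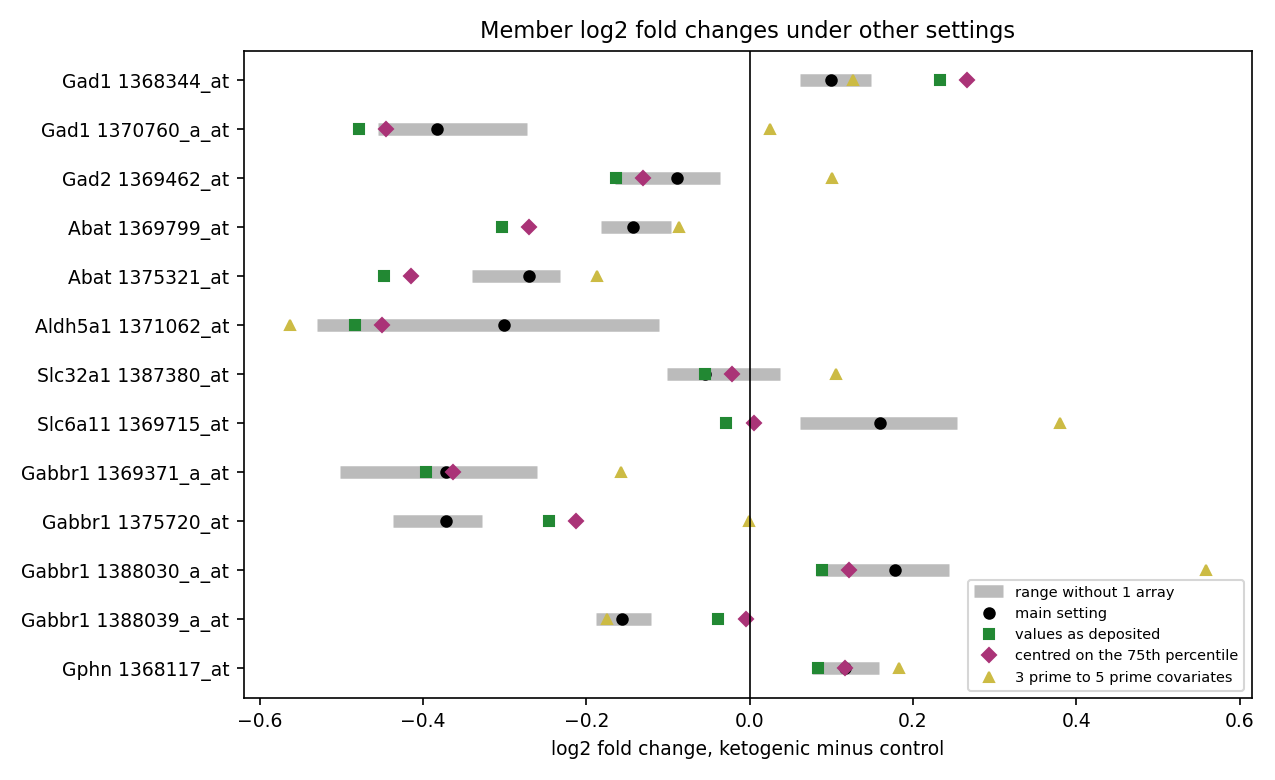
Log2 fold change (x axis, ketogenic minus control) of the 13 tested probe sets in the main setting (black), on values as deposited (green), centred on the 75th percentile (purple) and with 3 prime to 5 prime covariates (yellow), where tested, with grey bars for the range when 1 array was left out. For Gabbr1 1375720_at the bar stays below 0 and the yellow triangle lies at -0.00043.

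Genes around these 9 in the same pathway were taken from lists of 69 genes, of which 51 were tested. Each gene was represented by the tested probe set that had its highest mean, and 3 rose and 9 fell. The called share of 23.5% compares with 16.9% of all 8397 genes, of which 8.85% were higher and 8.03% lower. The median difference was 0.01, against -0.0033 over all genes. The split was 5 higher and 9 lower on the values as deposited, and 8 higher and 7 lower when centred on the 75th percentile. Fewer genes were called without single arrays, for example 3 without ketogenic replicate 4 and 6 without control replicate 5 or ketogenic replicate 1. The count was 15 without ketogenic replicate 3, and 0 with the 3 prime to 5 prime covariates. The vitamin B6 enzymes on the lists were not analysed here.

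Of 14 listed partners and effectors of the GABA-B receptor 12 were tested, and 1 rose and 2 fell. Gabbr2, the subunit that pairs with Gabbr1, was at 0.02 (SE 0.05, adjusted p = 0.846). Kcnj9 and Kcnj6 encode subunits of the potassium channels that GABA-B receptors open through G proteins. Kcnj9 fell by 0.64 (SE 0.14, adjusted p = 0.0107), from 6.42 ± 0.23 (SD, n = 6) to 5.78 ± 0.24 (SD, n = 5). Kcnj6 rose by 0.40 (SE 0.10, adjusted p = 0.0198), while 2 of its other 3 tested probe sets had a negative sign, at -0.15 and -0.32. Gnai2, an inhibitory G protein subunit, fell by 0.31 (SE 0.09, adjusted p = 0.0345). Cacna1a, a calcium channel subunit that GABA-B receptors inhibit, was not called in its representative probe set (-0.33, adjusted p = 0.138), but 1 of its other 3 was called lower, at -0.70 (adjusted p = 0.0129). Kcnj3, a subunit that pairs with those of Kcnj6 and Kcnj9, was at -0.0019 (SE 0.09, adjusted p = 0.991).

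Among GABA-A receptor subunits, 13 of 19 listed were tested, and 4 fell and 0 rose. The 4 were Gabre (-0.61, SE 0.11, adjusted p = 0.00482), Gabra6 (-0.65, SE 0.14, adjusted p = 0.0106), Gabrr1 (-0.71, SE 0.19, adjusted p = 0.0225) and Gabrg1 (-0.38, SE 0.12, adjusted p = 0.0465). The count of 4 held under both other scalings, and was 3 without the filter or the variance trend, 2 to 4 with 1 array left out (2 without ketogenic replicate 4), 1 with the lowest 50% of probe sets left out and 0 with the covariates. Gabra6 is best known from cerebellar granule cells and Gabrr1 from retina. Gabrr1 had a ketogenic mean of 5.02, under the testing level, and passed the filter through its control values. Gabra5, a subunit typical of hippocampal pyramidal cells, was at -0.14 (adjusted p = 0.263), and Gabrb1, at 0.18 (adjusted p = 0.108), was also not called.

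In the supply of glutamate and glutamine, from which GABA is made, 12 of 13 listed genes were tested, and 1 rose and 1 fell. Slc38a1, a glutamine transporter of neurons, rose by 0.36 (SE 0.09, adjusted p = 0.0212), but another tested probe set of it was called with the opposite sign, at -0.29 (adjusted p = 0.0418). Slc38a5, a further glutamine transporter, fell by 0.49 (SE 0.14, adjusted p = 0.0289). Glul, the glutamine synthetase of astrocytes, was at -0.0017 in its representative probe set (adjusted p = 0.988), whereas its other 2 tested probe sets were called lower, at -0.46 and -0.37. The glutamate transporters Slc1a1 and Slc1a3 were not called in their representative probe sets (0.08 and 0.23), but another probe set of each was, at 0.27 for Slc1a1 (adjusted p = 0.0126) and -0.29 for Slc1a3 (adjusted p = 0.0427). On the succinate and 2-oxoglutarate side of the shunt, all 8 listed genes were tested, and 1 rose and 2 fell. Sucla2 and Suclg1, subunits of succinyl-CoA synthetase, fell by 0.16 (SE 0.05, adjusted p = 0.0349) and 0.25 (SE 0.08, adjusted p = 0.0423), and Sdha, the flavoprotein of succinate dehydrogenase, rose by 0.20 (SE 0.06, adjusted p = 0.0393). At the inhibitory synapse, 0 of 4 tested genes were called by limma, with Gabarap, which binds GABA-A receptors, at -0.11 (adjusted p = 0.179). Neither of 2 tested molybdenum cofactor genes was called, with Mocs2 at 0.29 (adjusted p = 0.0657).

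**Figure D5:**
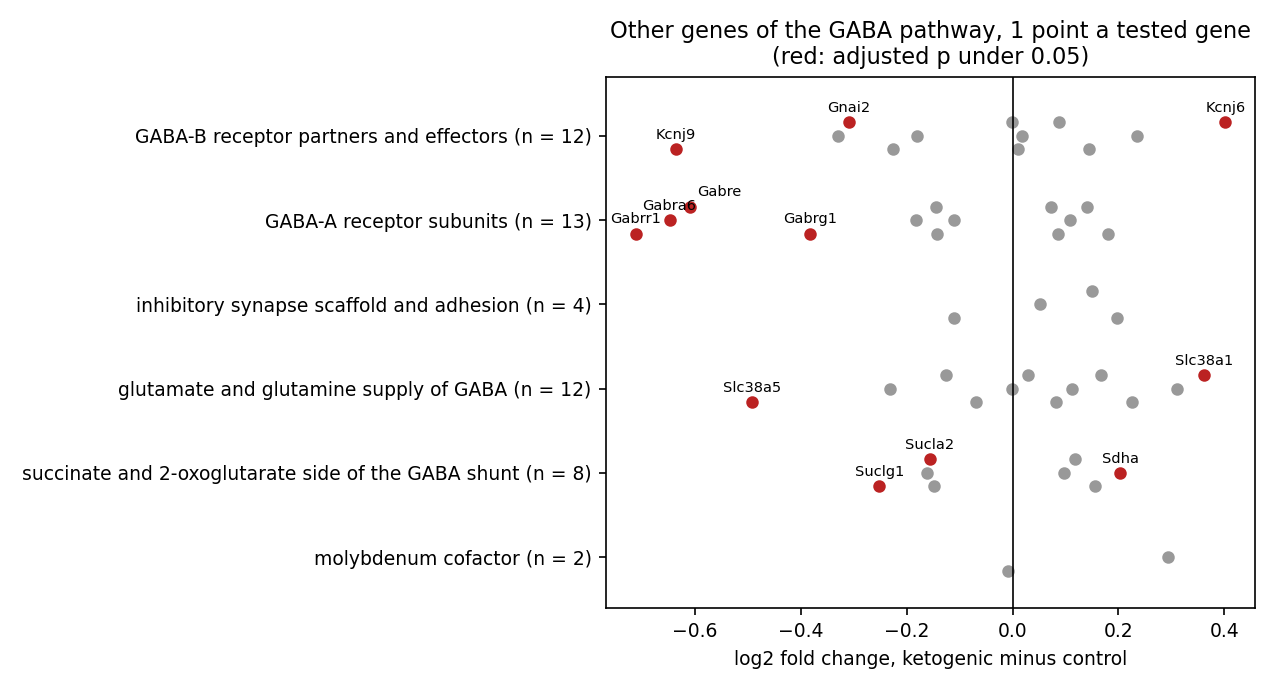
Log2 fold change (x axis, ketogenic minus control) of the 51 tested pathway genes, 1 point a gene, by list (y axis, with the number tested), in red where the adjusted p was under 0.05. Red points lie on both sides of 0 in 3 lists and only on the negative side among GABA-A subunits, from -0.71 to -0.38.

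Patterns most like each gene were sought by Pearson correlation over the 11 arrays, on values relative to the mean of their diet, between its probe set with the highest mean and one probe set of each other gene. With 8396 candidates and 11 arrays, high values arise in any such search, so no p is given. For Gad1 the nearest 3 were Bms1 (r 0.94), Ccndbp1 (0.90) and Nfkbib (0.89). For Gad2 they were Rap2a (r 0.92), Tmem11 (0.91) and Acvrl1 (0.89), and for Slc32a1 Tomm20, Exoc8 and Pcsk1n (all r 0.91). Abat lay nearest to Unc5a (r 0.89), Akap5 (0.88) and Sipa1l1 (0.85), and Gabbr1 to Or1n1 (r 0.88), Csf3 (0.88) and Camkk2 (0.87). For Gphn the nearest were Limch1, Trim32 and Ndufaf3 (all r 0.91), and for Slc6a11 Ncoa6 (r 0.93), Ppm1a (0.91) and Ppif (0.91). Aldh5a1 was nearest to Cbfb (r 0.93), Ssrp1 (0.88) and LOC102557529 (0.85), and Slc6a13 to Crispld2 (r 0.88), Prob1 (0.88) and the GABA-A subunit Gabre (0.87). In none of these lists of nearest 3 did another of the 9 genes appear.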

How the data were processed

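RNA of 11 hippocampus samples (6 control, 5 ketogenic) was read on 1-colour arrays. What the authors deposited are intensities on a linear scale, with 1 value for each probe set and array. How they were derived from the scans is not given in the sources used. The log2 values were quantile normalized between arrays, because array medians spanned 0.24, and set to a floor at the 5th percentile, a signal of 4.99. The 57 control probe sets and the 25% with the lowest mean were left out. Diets were compared two-sided by limma (version 3.58.1, R 4.3.3), with eBayes modelling a variance trend, except for pairs of probe sets. Gene symbols came from the platform annotation, updated through gene identifiers with a RefSeq table of GRCr8. The members and lists were chosen with earlier results of these data known. All probe sets of the 9 genes are named. Of the pathway lists the called genes and up to 3 with the smallest p are named. Of the marker lists the called genes and up to 3 with the highest mean are named. A few further genes were picked for their role or their values after the values were seen. Replicate numbers are shared by the diets, without a label that pairs them, and the number as a block was an alternative. The others were scaling, filter, floor, variance model, array weights, covariates, threshold and leaving out each array. The fit was tested on simulated data with known changes and independent noise for each probe set. Those data held no RNA quality difference between diets and no outlying array, so that test does not bear on either. The number of arrays limits the precision.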

Additional observations from a re-analysis of the deposited data

How the results depend on the processing

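Of the 13 tested probe sets 1 was called in the main setting, and 4 were called on the values as deposited, 4 after centring on the 75th percentile, 2 with array weights, 3 at a threshold of 0.1, 0 with the 3 prime to 5 prime covariates and 1 to 2 when 1 array was left out. Over all tested probe sets these counts were 1961 in the main setting, 3137 with array weights, 3071 at the threshold of 0.1, 6 with the covariates, 806 without ketogenic replicate 4 and 3166 without ketogenic replicate 3. Of the pathway genes 12 were called in the main setting, 7 without the filter, 7 without the variance trend, 0 with the covariates and 3 to 15 when 1 array was left out.

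Signs reversed with the covariates for Gad1 1370760_a_at (0.025), Gad2 (0.10) and Slc32a1 (0.11), and for Slc6a11 on the values as deposited (-0.028). Leaving out 1 array gave -0.10 to 0.038 for Slc32a1 and 0.15 to 0.23 for the actin ratio, whose p was over 0.05 in 5 of those 11 cases. The causes were not tested. Gabbr1 1375720_at kept its sign and its call in 23 of 24 alternatives and was at -0.00043 with the covariates. Gphn and Gabbr1 1388030_a_at kept their sign and stayed uncalled in all 24. The stricter filter, without the lowest 50%, gave no value for Abat, Aldh5a1 and Slc6a11.

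Same-numbered arrays of the diets did not deviate together (r 0.0089 to 0.077 over 5 pairs, with 2 of 5 best matched to their own number). With the replicate number as a block 1815 of all tested probe sets and 1 of the 13 were called, the latter Gabbr1 1375720_at at -0.40 (adjusted p = 0.00997), and 13 pathway genes. Signal near the testing level limits what Aldh5a1, Slc6a11 and Slc6a13 can show.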
